A study of Homo sapiens with 52 samples.

Results

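The 8 transcripts described here belong to genes that are known targets of the transcription factor ATF4: ASNS (ENST00000175506.8), PSAT1 (ENST00000376588.4), SLC7A11 (ENST00000280612.9), SESN2 (ENST00000253063.4), DDIT4 (ENST00000307365.4), TRIB3 (ENST00000217233.8), CEBPG (ENST00000284000.9) and VLDLR (ENST00000382100.8). They were chosen by name, as a list, and make up 8 of the 226882 transcripts in the deposited count table. All 8 had counts in every RNA-seq and Ribo-seq library.

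The study measured the transcriptome and the translatome of HEK293T cells, a human embryonic kidney line that carries the SV40 large T antigen. RNA-seq counts mRNA, Ribo-seq counts the RNA fragments protected by translating ribosomes, and TCP-seq (translation complex profile sequencing) counts the fragments protected by ribosomal complexes at all stages, scanning small subunits included. In RNA-seq and in Ribo-seq the groups were the MCTS1 knockout lines MCTS1 KO #1 and MCTS1 KO #2 with their WT cells, and cells given either of a pair of siRNAs against DENR (siDENR #1 and siDENR #2) with cells given the control siRNA (siControl). In TCP-seq the groups were eIF2D KO #1, eIF2D KO #2, MCTS1 KO #1 and MCTS1 KO #2, with 4 WT libraries. Every one of these groups had 2 libraries, except WT in TCP-seq. Apart from the knockout or the siRNA, no genotype, drug or stress was named for any of them. Libraries selected through the tagged proteins eIF2D-V5, MCTS1-V5 or DENR-V5 were a separate set, described near the end. The labels number the knockout lines and do not say whether each is 1 clone, nor whether the 2 libraries of a group were grown apart, so a p-value sets a change against the spread between libraries, which may be technical only.

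ATF4 is the transcription factor at the end of the integrated stress response, which is known to be set off by amino acid shortage, misfolded proteins in the endoplasmic reticulum, haem shortage or viral RNA. These stresses lead to phosphorylation of eIF2, general translation falls, and the ATF4 mRNA, which carries upstream open reading frames, is translated more. MCTS1 and DENR form a dimer that helps to recycle the small ribosomal subunit after termination and to restart translation downstream of some upstream open reading frames, and the ATF4 mRNA is known as one of those that depend on it; eIF2D joins domains related to those of MCTS1 and DENR in 1 protein. ATF4 binds DNA with a C/EBP partner at composite sites, part C/EBP site and part CRE, and its targets serve amino acid synthesis and uptake, redox balance, control of mTORC1 and feedback on the response itself. The comparisons below therefore read the 8 mRNAs as an indirect measure of ATF4 activity. ATF4 itself was not analysed here, and whether other inputs act on these mRNAs was not tested.

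The best-known form of this site in the ASNS promoter was looked for in the RefSeq promoter windows of the members (GRCh38.p14, 250 bases before to 50 bases after each start), because it is the sequence through which ATF4 is known to act on that gene. The letters searched were TGATGNAA, with TTNCATCA as the other strand. Of the 8 members 7 had at least 1 window, 11 windows in all, and 2 members held a match, ASNS and CEBPG. Each match is shown with 11 bases on either side, in the direction of the gene, with the match in capitals.
ASNS promoter, chr7:97872458-97872487, minus strand: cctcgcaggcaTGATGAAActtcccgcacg
CEBPG promoter, chr19:33374060-33374089, plus strand: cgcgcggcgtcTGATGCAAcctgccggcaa
The first base of the match lay 68 bases upstream of the start that defines its window in ASNS and 42 bases upstream in CEBPG. Both genes also had another window, without a match. The same letters were found in 1270 of the 35116 windows of all genes, or 3.62%. Counted by gene, 1217 of 27305 genes, or 4.46%, had a match in at least 1 window. The letters were taken from the known ASNS site, so the ASNS match was given in advance and cannot be set against these shares. A match is a description of the letters, and the absence of one in the other windows says only that these letters are not there.

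The depth was 76967099 to 301214608 counts per library in RNA-seq, 16370112 to 193940882 in Ribo-seq and 1609303 to 5053637 in TCP-seq. MCTS1 KO #1 was deepest in RNA-seq (301214608 and 150951436) and Ribo-seq (193940882 and 148159238). MCTS1 KO #2 had 82864959 and 89789500 in RNA-seq and 29624164 and 28668241 in Ribo-seq. In TCP-seq line #2 was the deeper, with 3294478 and 3853825 beside 1969167 and 1609303. More counts make a change easier to pass, so numbers past the test do not compare the lines alike. Levels below are CPM, the count scaled to the total of its library, so a level can be compared between libraries for 1 transcript but not between transcripts of different length. Differences are log2 changes from edgeR's quasi-likelihood test, fitted to all transcripts that passed the filter on low counts, with the Benjamini-Hochberg adjusted p over all of them. A transcript passed the test where that p was under 0.05. In such bulk samples, a change in every cell cannot be told apart from a change in the share of cells that express the gene.

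In the MCTS1 knockout lines, the mRNAs of the 8 genes did not lie on 1 side of WT cells. In RNA-seq, 5 of 8 passed the test for the mean of both lines against WT cells, of which SESN2, TRIB3 and ASNS were higher and DDIT4 and SLC7A11 were lower. Among all 131951 transcripts tested 24.9% passed, 11.4% higher and 13.5% lower. The median log2 change of the 8 was 0.09, and that of all transcripts tested was -0.0051. Both knockout lines had 5 members past the test against WT cells, where 42.2% of all transcripts passed in MCTS1 KO #1 and 14.9% in MCTS1 KO #2, but SESN2 was the only member that passed in the same direction in both. Line #1 had the deeper libraries, so these shares do not compare the lines alike.

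ASNS encodes asparagine synthetase, which makes asparagine from aspartate and glutamine. Its mRNA stood at 32.3 and 32.6 CPM in MCTS1 KO #1, at 18.0 and 18.7 CPM in MCTS1 KO #2 and at 20.4 and 19.9 CPM in WT cells. Line #1 was thus well above WT and line #2 below it, so the KO range held the WT range within it. The log2 change was 0.65 ± 0.05 (SE) in line #1 (adjusted p = 4.9e-20) and -0.09 ± 0.05 in line #2 (adjusted p = 0.24), and the mean of both, 0.28 ± 0.04 (adjusted p = 1.3e-07), describes neither line. PSAT1, phosphoserine aminotransferase of the serine pathway, showed the same order of groups, with 48.0 and 46.2 CPM in line #1, 34.6 and 34.5 CPM in line #2 and 40.0 and 38.8 CPM in WT cells. It rose in line #1 by a log2 change of 0.22 (adjusted p = 5.2e-06) and fell in line #2 with one of -0.15 (adjusted p = 0.0092), and the mean, 0.04 ± 0.04, did not pass (adjusted p = 0.5).

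SLC7A11, the transport subunit of the cystine and glutamate exchanger that supplies cysteine for glutathione, was split most. Its mRNA had 8.86 and 8.00 CPM in MCTS1 KO #1, 3.43 and 3.38 CPM in MCTS1 KO #2 and 6.63 and 6.89 CPM in WT cells. Line #1 lay above WT and line #2 far below it, with no overlap between any of the 3 groups. The log2 change was 0.29 ± 0.07 in line #1 (adjusted p = 0.00048) and -0.95 ± 0.09 in line #2 (adjusted p = 2.8e-14), and the difference between the lines, 1.24 ± 0.08, was tested in the same edgeR fit (adjusted p = 3.7e-22). The mean of both lines, -0.33 ± 0.07 (adjusted p = 9.4e-05), has the sign of line #2 only.

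SESN2 encodes sestrin 2, a leucine-binding inhibitor of mTORC1 signalling, and was the member that moved most evenly. It had 21.7 and 19.7 CPM in MCTS1 KO #1, 17.6 and 18.8 CPM in MCTS1 KO #2 and 15.6 and 14.2 CPM in WT cells. All 4 KO libraries lay above both WT libraries. The log2 change was 0.39 ± 0.05 (adjusted p = 7.5e-10), 0.44 in line #1 and 0.34 in line #2, and stayed between 0.32 and 0.47 under every alternative run. DDIT4 (REDD1), a stress-induced inhibitor of mTORC1, went the other way, with 7.69 and 7.45 CPM in line #1, 9.63 and 8.93 CPM in line #2 and 10.5 and 10.6 CPM in WT cells. All KO libraries lay below WT; the log2 change was -0.33 ± 0.06 (adjusted p = 3e-06), and in line #2 alone, at -0.14, it did not pass (adjusted p = 0.14). These inhibitors of the same kinase complex, both listed as ATF4 targets, thus changed in opposite directions in the same libraries.

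TRIB3, a pseudokinase that is induced by ATF4 and restrains its activity, had 3.70 and 3.56 CPM in MCTS1 KO #1, 4.84 and 4.32 CPM in MCTS1 KO #2 and 3.52 and 2.81 CPM in WT cells. The ranges did not overlap, but the lower line #1 library stood only just above the higher WT library. Its log2 change of 0.37 ± 0.09 (adjusted p = 0.00069) was 0.21 (adjusted p = 0.21) without the second WT library and 0.17 (adjusted p = 0.15) in line #1 alone. CEBPG, a bZIP protein of the C/EBP family that pairs with ATF4 on DNA, had 18.7 and 17.9 CPM in line #1, 14.3 and 13.7 CPM in line #2 and 16.4 and 16.9 CPM in WT cells, again with the lines on either side of WT, and its mean change of -0.05 ± 0.05 did not pass (adjusted p = 0.44). VLDLR, the very low density lipoprotein receptor, was the member with the lowest counts, at 0.579 to 0.837 CPM in KO and 0.617 to 0.626 CPM in WT libraries, and its change of 0.14 ± 0.19 did not pass (adjusted p = 0.63).

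**Figure D1:**
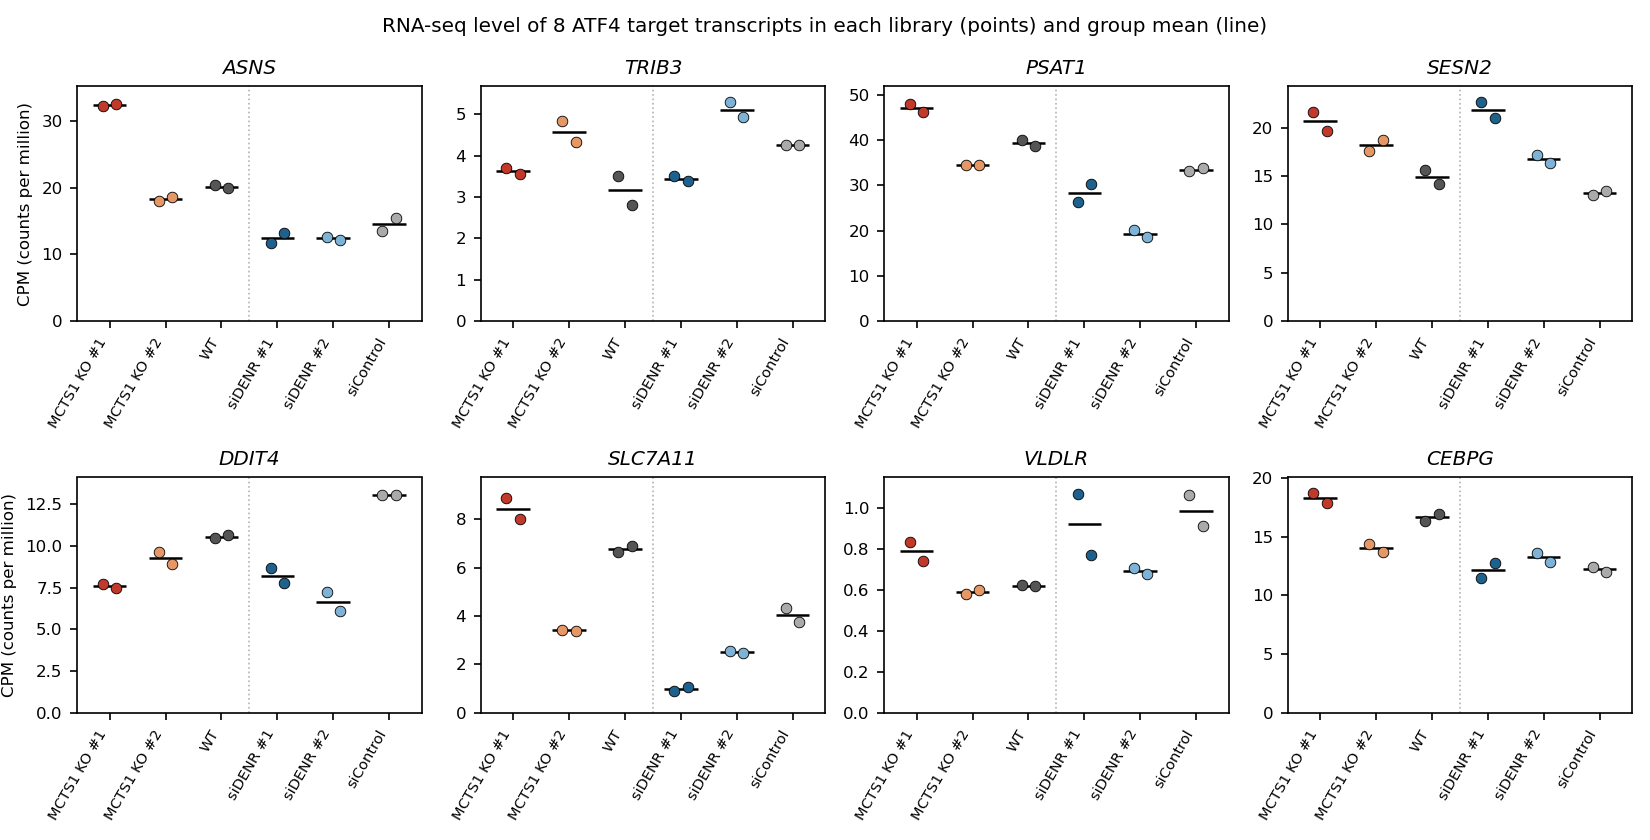
RNA-seq level (CPM, linear axis from 0) of each ATF4 target transcript, with 1 point per library, a line at the group mean and groups along the x axis, the MCTS1 KO lines with WT on the left and the siDENR groups with siControl on the right of each panel. SESN2 is above its control in all 4 knockout and all 4 siDENR libraries and DDIT4 is below it in all 8, while SLC7A11 lies above WT in MCTS1 KO #1, at 8.86 and 8.00 CPM, and below it in MCTS1 KO #2, at 3.43 and 3.38 CPM.

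Whether the lines differ was tested directly. In RNA-seq, 6 of 8 members differed between MCTS1 KO #1 and MCTS1 KO #2, where 45.8% of all 131951 transcripts did. ASNS, PSAT1, SLC7A11 and CEBPG were higher in line #1 than in line #2, and TRIB3 and DDIT4 were lower. The log2 difference of SESN2, 0.11 with a 95% confidence interval of 0.01 to 0.21, did not pass (adjusted p = 0.071), nor did that of VLDLR, 0.35 with an interval of -0.03 to 0.73 (adjusted p = 0.13).

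After DENR knockdown the falls outnumbered the rises. In RNA-seq, 5 of 8 members passed the test for the mean of both siRNAs against siControl, with SLC7A11, DDIT4, PSAT1 and ASNS lower and SESN2 higher, where 23.1% of all 131311 transcripts tested passed, 10.5% higher and 12.7% lower. With siDENR #1 alone 5 of 8 passed (26% of all transcripts), and with siDENR #2 alone 5 of 8 (19.2%). The median log2 change was -0.29 over the 8 and -0.0079 over all transcripts tested.

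SLC7A11 fell furthest, to 0.887 and 1.06 CPM in siDENR #1 and 2.56 and 2.48 CPM in siDENR #2, against 4.31 and 3.74 CPM in siControl. Each siRNA group lay below siControl, and siDENR #1 was also well below siDENR #2. The log2 change was -1.38 ± 0.12 (adjusted p = 4e-14), a fold of 0.385, with -2.03 for siDENR #1 and -0.72 for siDENR #2, and the difference between the siRNAs was -1.31 ± 0.16 (adjusted p = 2.4e-09). DDIT4 stood at 8.65 and 7.78 CPM in siDENR #1, at 7.24 and 6.07 CPM in siDENR #2 and at 13.1 CPM in both siControl libraries. Its log2 change of -0.85 ± 0.08 (adjusted p = 1.4e-12) was -0.67 for siDENR #1 and -1.02 for siDENR #2, and all 4 libraries were below siControl.

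PSAT1 had 26.3 and 30.3 CPM in siDENR #1, 20.1 and 18.6 CPM in siDENR #2 and 33.1 and 33.8 CPM in siControl. All siDENR libraries were below siControl, by a log2 change of -0.54 ± 0.07 (adjusted p = 1.8e-09), and siDENR #2 was the lower of the siRNAs, with -0.84 beside -0.24 for siDENR #1. ASNS had 11.8 and 13.2 CPM in siDENR #1, 12.6 and 12.2 CPM in siDENR #2 and 13.5 and 15.5 CPM in siControl. The groups lay next to each other without overlap, and the log2 change of -0.25 ± 0.08 (adjusted p = 0.013) rested on the second siControl library, since it was -0.12 (adjusted p = 0.53) without it. SESN2 was at 22.7 and 21.0 CPM in siDENR #1, 17.2 and 16.4 CPM in siDENR #2 and 13.0 and 13.5 CPM in siControl. It rose in all 4 libraries, by a log2 change of 0.50 ± 0.07 (adjusted p = 1.7e-07), with 0.72 for siDENR #1 and 0.29 for siDENR #2.

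The other 3 members did not pass in the mean of both siRNAs. TRIB3 had 3.50 and 3.38 CPM in siDENR #1, 5.29 and 4.94 CPM in siDENR #2 and 4.25 and 4.27 CPM in siControl, so the siRNAs lay on either side of the control, and the difference between them passed (-0.52 ± 0.12, adjusted p = 0.00057). CEBPG, at 11.5 to 13.6 CPM in siDENR and 11.97 to 12.5 CPM in siControl libraries, changed by 0.03 ± 0.08 (adjusted p = 0.82), with a 95% confidence interval of -0.12 to 0.18. VLDLR, at 0.676 to 1.07 CPM in siDENR and 0.913 to 1.06 CPM in siControl libraries, changed by -0.33 ± 0.19 (adjusted p = 0.22).

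Between the siRNAs themselves, 5 of 8 members differed in RNA-seq, where 24.9% of all transcripts did. TRIB3 and SLC7A11 were lower with siDENR #1 than with siDENR #2, and PSAT1, SESN2 and DDIT4 were higher.

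The MCTS1 knockout and the DENR knockdown have separate controls, so their values can be set side by side. SESN2 was higher and DDIT4 was lower in both, with 4 of 4 libraries on the same side of the control each time. In MCTS1 KO #2 alone the fall of DDIT4 did not pass. Of all transcripts tested, 24.9% passed in the knockout and 23.1% after the knockdown. How many of them lay apart from the control on the same side in both was not counted. SLC7A11 was lower in MCTS1 KO #2 and under both siRNAs, but higher in MCTS1 KO #1. PSAT1 was lower in the same 3 groups and higher in MCTS1 KO #1 too. Whether the knockout and the knockdown differ for any member was not tested.

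Ribosome footprints in the MCTS1 knockout were then examined. In Ribo-seq, 1 of 8 members passed for the mean of both lines, where 6.11% of all 115412 transcripts tested did, and that member was SESN2. It had 14.1 and 15.1 CPM in MCTS1 KO #1, 12.8 and 13.1 CPM in MCTS1 KO #2 and 8.26 and 9.55 CPM in WT cells, with all KO libraries above WT. The log2 change was 0.60 ± 0.09 (adjusted p = 0.00026), 0.68 in line #1 and 0.52 in line #2. The median log2 change of the members was 0.10, and that of all transcripts tested was -0.0091.

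Line by line, the footprints again parted. In MCTS1 KO #1, 5 of 8 members passed (16.7% of all transcripts), with ASNS at 0.73, SESN2 at 0.68, SLC7A11 at 0.54, PSAT1 at 0.29 and DDIT4 at -0.49. In MCTS1 KO #2, 2 of 8 passed (3.62% of all transcripts), SESN2 at 0.52 and SLC7A11 at -0.88. The libraries of line #1 were several times deeper, so these numbers past the test do not compare the lines alike. ASNS footprints had 76.4 and 70.1 CPM in line #1, 35.6 and 36.4 CPM in line #2 and 46.6 and 41.1 CPM in WT cells. The WT libraries lay between the lines, and the difference between the lines was 1.02 ± 0.08 (adjusted p = 8.7e-09). The mean change of ASNS, 0.22 ± 0.07, did not pass (adjusted p = 0.078) but did without the first WT library, at 0.32 (adjusted p = 0.0011), and with no filter on low counts, at 0.24 (adjusted p = 0.024).

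SLC7A11 footprints had 6.58 and 7.14 CPM in MCTS1 KO #1, 2.46 and 2.65 CPM in MCTS1 KO #2 and 4.96 and 4.46 CPM in WT cells. As for its mRNA, line #1 was above WT and line #2 below, with a difference of 1.42 ± 0.14 between the lines (adjusted p = 1.7e-07). PSAT1 footprints stood at 70.9 and 68.5 CPM in line #1, at 49.5 and 53.3 CPM in line #2 and at 59.6 and 53.6 CPM in WT cells. Those of DDIT4 had 6.85 and 6.68 CPM in line #1, 8.74 and 9.49 CPM in line #2 and 9.11 and 9.68 CPM in WT cells, so that line #2 overlapped WT. TRIB3 footprints were at 1.65 to 2.30 CPM in KO and 1.27 to 1.51 CPM in WT libraries, without overlap, and their change of 0.41 ± 0.19 did not pass (adjusted p = 0.22). In all, 4 of 8 members differed between the lines in Ribo-seq (18.6% of all transcripts), namely ASNS, PSAT1, SLC7A11 and DDIT4. CEBPG and VLDLR overlapped between KO and WT libraries, with changes of -0.04 ± 0.12 and 0.14 ± 0.31.

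**Figure D2:**
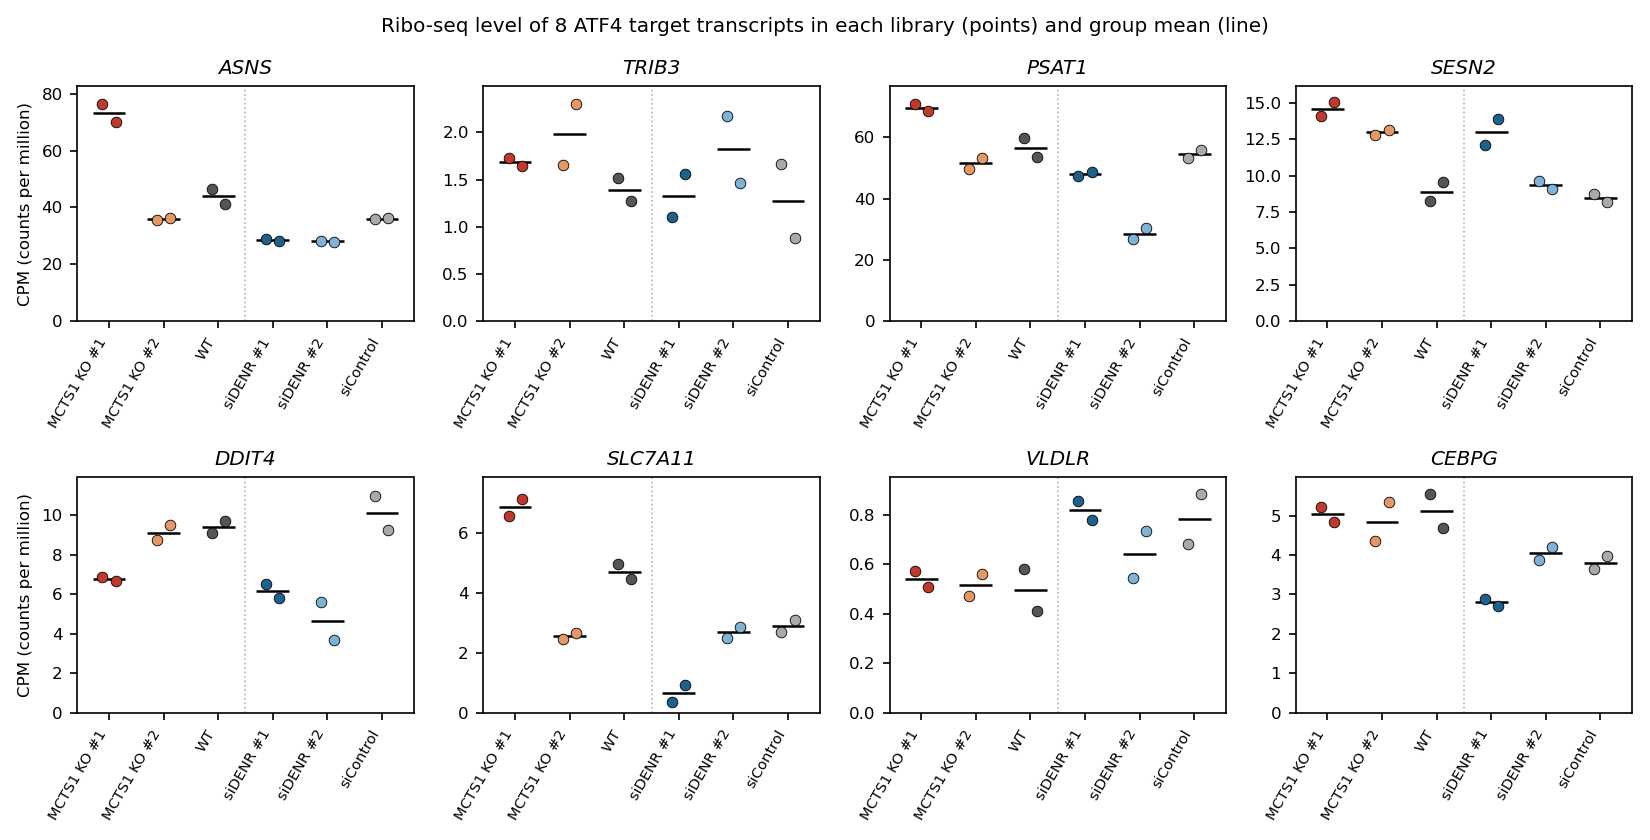
Ribo-seq level (CPM, linear axis from 0) of each ATF4 target transcript, with 1 point per library, a line at the group mean and groups along the x axis, the MCTS1 KO lines with WT on the left and the siDENR groups with siControl on the right. SLC7A11 lies at 0.367 and 0.922 CPM in siDENR #1, below the 2.69 and 3.10 CPM of siControl, while siDENR #2 overlaps siControl, and SESN2 is above WT in all 4 knockout libraries.

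In DENR-depleted cells, 5 of 8 members passed in Ribo-seq, where 10.4% of all 108890 transcripts tested did, and they were the same 5 genes with the same signs as in RNA-seq. PSAT1 footprints had 47.4 and 48.6 CPM in siDENR #1, 26.6 and 30.3 CPM in siDENR #2 and 53.2 and 55.8 CPM in siControl. The siDENR libraries were all below siControl, with a log2 change of -0.59 ± 0.06 (adjusted p = 1e-10), and those of siDENR #2 were lower than those of siDENR #1 by 0.75 (adjusted p = 3e-11). DDIT4 footprints were at 6.53 and 5.83 CPM in siDENR #1, 5.59 and 3.67 CPM in siDENR #2 and 10.98 and 9.24 CPM in siControl, a log2 change of -0.92 ± 0.14 (adjusted p = 2.2e-06). ASNS footprints were close to each other within groups, with 29.0 and 28.3 CPM in siDENR #1, 28.3 and 27.9 CPM in siDENR #2 and 35.9 and 36.1 CPM in siControl. They fell under both siRNAs, by a log2 change of -0.37 ± 0.07 for the mean (adjusted p = 7.4e-05).

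SLC7A11 footprints depended on the siRNA. They had 0.367 and 0.922 CPM in siDENR #1, 2.505 and 2.87 CPM in siDENR #2 and 2.69 and 3.10 CPM in siControl, so that siDENR #2 overlapped siControl. The mean change of -1.18 ± 0.27 (adjusted p = 0.0014) was -2.22 for siDENR #1 (adjusted p = 4.3e-06) and -0.14 for siDENR #2 (adjusted p = 0.85), and it was -1.07 (adjusted p = 0.061) without the second siControl library. SESN2 footprints had 12.1 and 13.9 CPM in siDENR #1, 9.66 and 9.10 CPM in siDENR #2 and 8.74 and 8.20 CPM in siControl. Their rise of 0.36 ± 0.12 (adjusted p = 0.036) was close to the threshold, and did not pass with DESeq2 (adjusted p = 0.12), with no filter on low counts (adjusted p = 0.063), for siDENR #2 alone (adjusted p = 0.65) or in 4 of the 6 fits without 1 library. With siDENR #1 alone 5 of 8 members passed (10.6% of all transcripts) and with siDENR #2 alone 3 of 8 (9.21%), and 3 of 8 differed between the siRNAs (11.1%). TRIB3, VLDLR and CEBPG overlapped between siDENR and siControl libraries and did not pass, with changes of 0.28 ± 0.32, -0.15 ± 0.41 and -0.20 ± 0.19.

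The footprints of these genes were then set against their mRNA, as translational efficiency, the interaction of group and assay in 1 fit over both. For MCTS1 KO against WT 0 of 8 members passed, where 0.862% of all 108757 transcripts tested did, and for siDENR against siControl 0 of 8 passed, where 0.377% of 102515 did. At an unadjusted p under 0.05, 0 members passed in either, where 11514 and 9649 of all transcripts did. With DESeq2 0 members passed the adjusted threshold. Between the KO lines 0 of 8 members differed in efficiency (6.2% of all transcripts), and between the siRNAs 0 of 8 (1.01%). At an unadjusted p under 0.05 there was 1 member in each, where 21799 of 108757 and 9864 of 102515 transcripts passed. The log2 changes in efficiency ran from -0.07 (ASNS) to 0.20 (SESN2) in the knockout and from -0.24 (CEBPG) to 0.34 (TRIB3) after knockdown. How tight these limits are depends on the counts. The 95% confidence interval was -0.13 to 0.18 for PSAT1 and -0.23 to 0.10 for ASNS in the knockout, but -0.68 to 0.69 for VLDLR. The interval of VLDLR includes changes of up to about 1.6-fold in either direction. For SLC7A11 after knockdown the 95% confidence interval ran from -0.39 to 0.75.

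**Figure D3:**
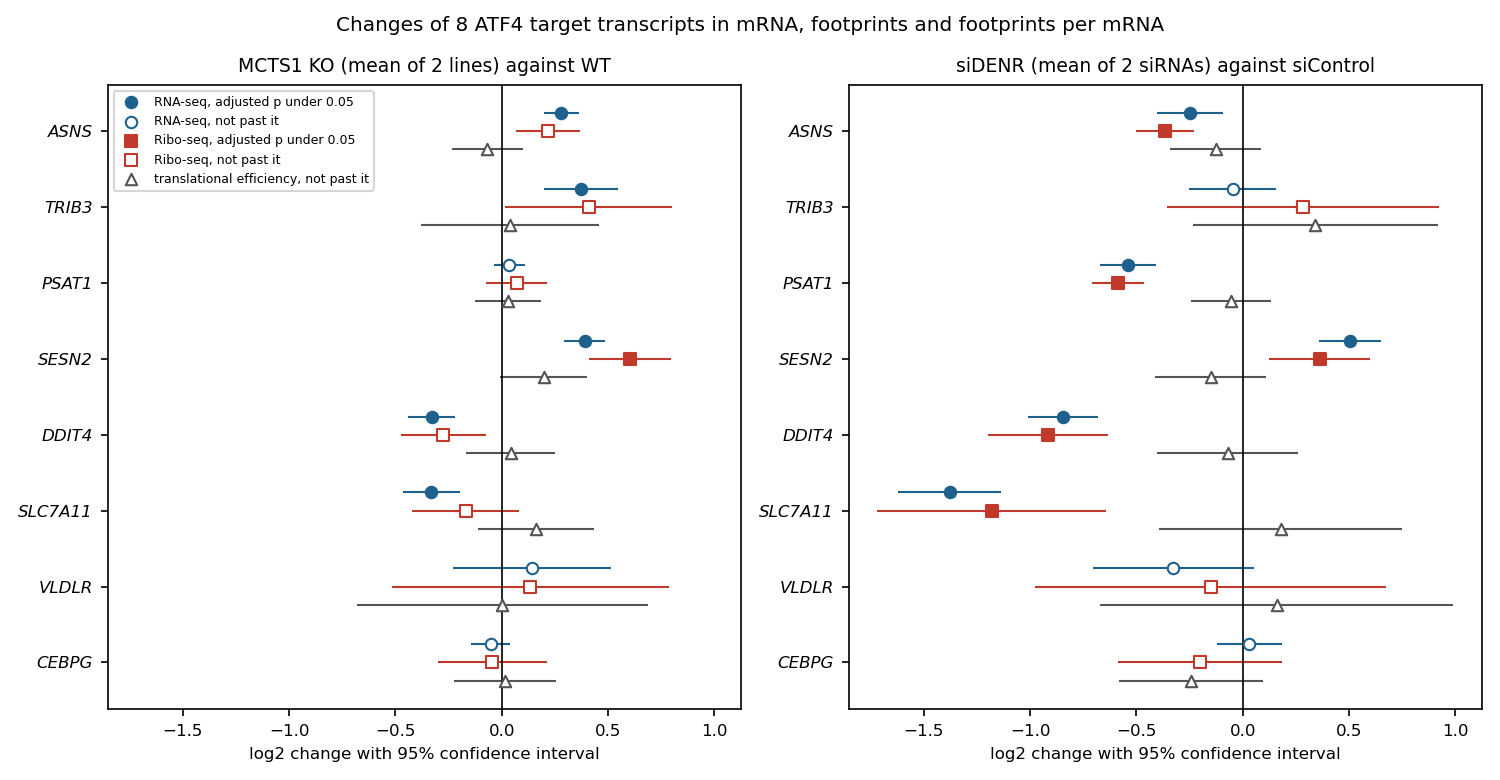
Log2 change with its 95% confidence interval (x axis) of each ATF4 target transcript (y axis) in RNA-seq (circles), Ribo-seq (squares) and translational efficiency (triangles), on the left for the mean of the MCTS1 KO lines against WT and on the right for the mean of the siRNAs against siControl, with filled symbols where the adjusted p was under 0.05. The intervals of all triangles span 0, while in siDENR cells the circles and squares of SLC7A11, DDIT4 and PSAT1 lie to the left of it, at -1.38, -0.85 and -0.54 in RNA-seq.

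**Figure D4:**
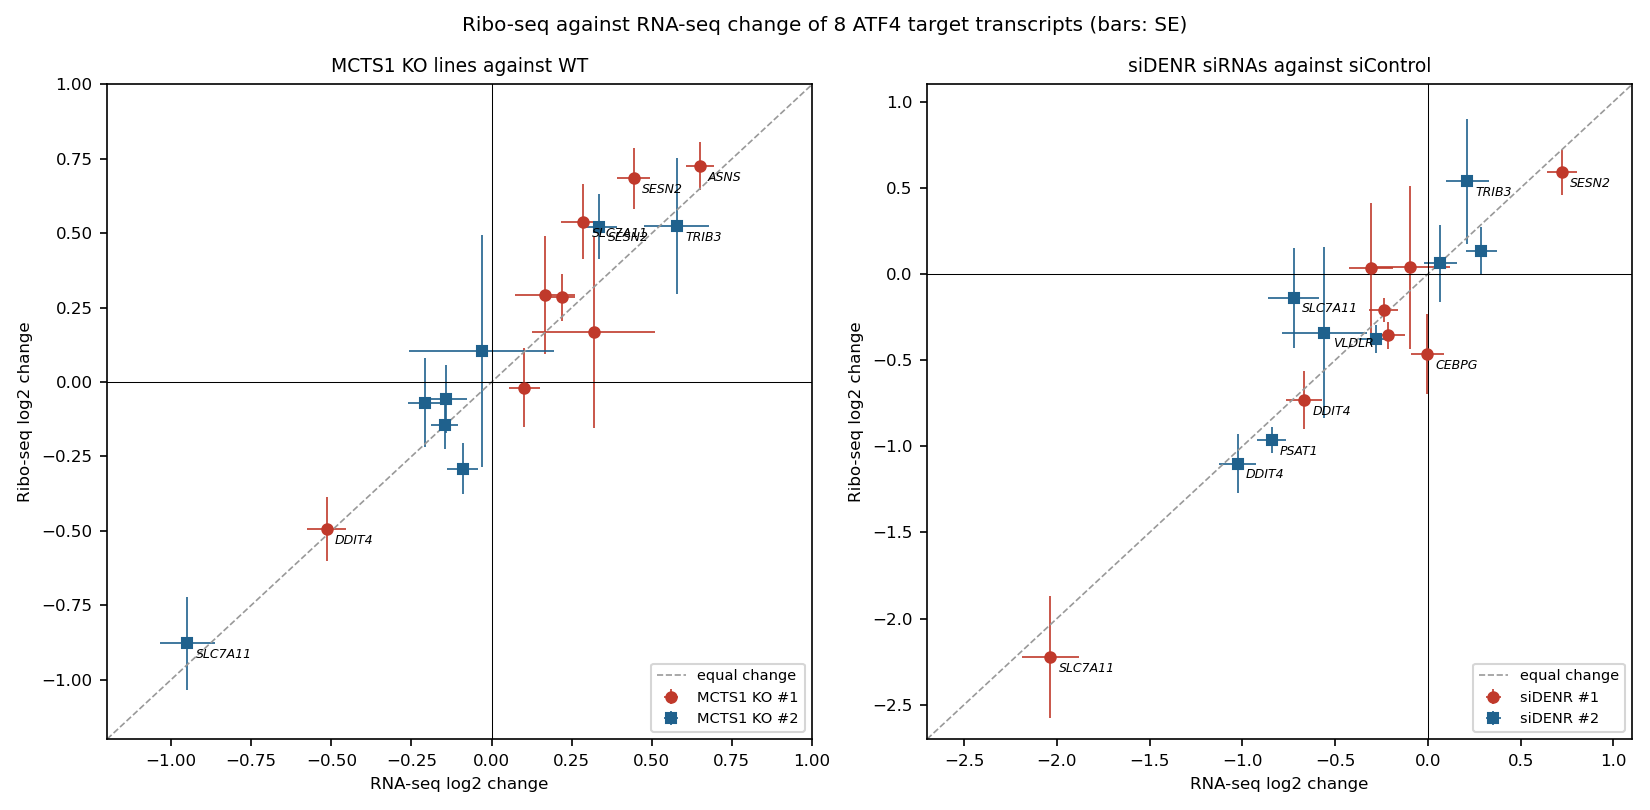
Log2 change in Ribo-seq (y axis) against that in RNA-seq (x axis) for each ATF4 target transcript, drawn for each MCTS1 KO line against WT on the left and for each siRNA against siControl on the right, with bars of 1 SE and a dashed line of equal change. SLC7A11 sits at 0.29 and 0.54 for MCTS1 KO #1 and at -0.95 and -0.88 for MCTS1 KO #2, in opposite corners of the left panel; the points of a panel share their control libraries.

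The members differ widely in their Ribo-seq level per RNA-seq level, a ratio in which the length of the whole transcript cancels. The share of a transcript that is translated does not cancel, so between transcripts the ratio does not compare ribosome load alone. In WT cells the Ribo-seq level over the RNA-seq level was 2.18 for ASNS, which placed it at percentile 97.7 of the 87273 transcripts with at least 1 CPM of mRNA, against a median of 0.734. PSAT1 followed at 1.44, then DDIT4 at 0.891, SLC7A11 at 0.697, SESN2 at 0.599 and TRIB3 at 0.440, and CEBPG was the lowest at 0.307, percentile 14.7. VLDLR, under 1 CPM of mRNA, was at 0.799. When WT libraries of the same number were divided, though the numbers are not known to pair them, ASNS had 2.29 and 2.07 and CEBPG 0.339 and 0.277. The distance between these members was far larger than that between the ratios of 1 member. DDIT4, at 0.871 and 0.910, and SLC7A11, at 0.749 and 0.647, did not overlap, whereas the ranges of SLC7A11 and SESN2, at 0.530 and 0.675, did.

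The picture from TCP-seq was narrower, since 6 of 8 members passed the filter on low counts in these shallow libraries. TRIB3 had 3 to 12 counts per library and VLDLR 0 to 7, and neither was tested. VLDLR was at 0 counts in 1 library each of eIF2D KO #2 and MCTS1 KO #1 and in 2 of the 4 WT libraries, where 3 counts, the limit that a count of 0 allows, would be 1.34, 1.52, 0.973 and 1.58 CPM. These limits cover counting error only. WT replicates 1 and 2 were the control of the eIF2D KO libraries and WT replicates 3 and 4 that of the MCTS1 KO libraries, because the library numbers of each set run on from those replicates.

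In the eIF2D knockout 0 of 6 members passed, where 1.63% of all 50991 transcripts tested did. At an unadjusted p under 0.05 there were 3 members, and 6304 of all 50991 transcripts. The largest changes were those of DDIT4, SLC7A11 and PSAT1, all towards lower levels. DDIT4 had 6.89 and 9.56 CPM in eIF2D KO #1, 9.10 and 10.3 CPM in eIF2D KO #2 and 15.6 and 11.4 CPM in WT replicates 1 and 2, with no overlap and a log2 change of -0.69 ± 0.24 (adjusted p = 0.12). SLC7A11 had 8.91 and 11.5 CPM in line #1, 6.53 and 13.9 CPM in line #2 and 15.2 and 13.0 CPM in WT, which overlapped through 1 line #2 library, with a change of -0.63 ± 0.24 (adjusted p = 0.20). The WT pairs mattered here, since WT replicates 3 and 4 had 18.3 and 22.6 CPM of DDIT4 and 18.3 and 21.1 CPM of SLC7A11. Against all 4 WT libraries DDIT4 passed at -0.98 (adjusted p = 0.0014) and SLC7A11 at -0.85 (adjusted p = 0.0086), and SLC7A11 also passed without the second library of eIF2D KO #2, at -0.87 (adjusted p = 0.043).

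PSAT1 in the same cells had 18.2 and 13.7 CPM in eIF2D KO #1, 23.0 and 21.9 CPM in eIF2D KO #2 and 20.8 and 31.2 CPM in WT replicates 1 and 2. Line #1 was below WT and line #2 overlapped it. The mean change of -0.48 ± 0.18 did not pass (adjusted p = 0.20), that of line #1 alone did, at -0.79 (adjusted p = 0.03), and the lines differed by -0.61 ± 0.21 (adjusted p = 0.046). It was the 1 member of 6 past the test in line #1 (2.02% of all transcripts) and between the lines (8.97%). In line #2 0 of 6 passed (3.29%), with 2 at an unadjusted p under 0.05, where 8157 of all 50991 transcripts were. CEBPG was the only member with a change above 0 in the mean, 0.17 ± 0.22 (adjusted p = 0.83), with 13.3 to 21.1 CPM in the eIF2D KO libraries and 12.5 and 13.0 CPM in WT, without overlap. ASNS and SESN2 overlapped between the groups, with changes of -0.29 ± 0.24 and -0.16 ± 0.23.

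In the MCTS1 knockout SLC7A11 was the 1 member of 6 that passed in TCP-seq, where 13.8% of all 50991 transcripts tested did. It had 6.09 and 8.08 CPM in MCTS1 KO #1, 6.98 and 9.60 CPM in MCTS1 KO #2 and 18.3 and 21.1 CPM in WT replicates 3 and 4. The highest KO library was far below the lower WT library. The log2 change was -1.39 ± 0.25 (adjusted p = 1.1e-05), a fold of 0.381, and it was alike in the lines, at -1.48 and -1.30; under the 14 alternatives run it stayed between -1.53 and -0.94, with an adjusted p of at most 0.013. The other 5 members did not pass. PSAT1 came closest, at 14.0 to 19.3 CPM in KO and 21.6 to 25.7 CPM in WT libraries, without overlap and with a change of -0.52 ± 0.20 (adjusted p = 0.068), and it passed against all 4 WT libraries at -0.56 (adjusted p = 0.027). In line #1 alone 1 of 6 members passed (4.91% of all transcripts) and in line #2 alone 2 of 6 (18.9%), SLC7A11 and PSAT1, with PSAT1 at -0.66 (adjusted p = 0.023). Between the lines 0 of 6 differed (3.48%), with 1 at an unadjusted p under 0.05, where 8324 of all 50991 transcripts were.

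SLC7A11 in MCTS1 KO #1 passed the test with opposite signs in different assays. Its mRNA and its Ribo-seq footprints were higher than in WT, at 0.29 (95% confidence interval 0.15 to 0.42) and 0.54 (0.28 to 0.80), while its TCP-seq level was lower, at -1.48 (-2.13 to -0.84). In MCTS1 KO #2 the 3 assays had the same sign, with -0.95, -0.88 and -1.30. The difference between assays was not tested, the WT libraries of TCP-seq were not those of RNA-seq, and SLC7A11 had 12 to 47 counts in a TCP-seq library. SLC7A11 was also the member with the most TCP-seq signal per mRNA in WT cells, 2.502, at percentile 96.6 of 86344 transcripts with a median of 0.696, followed by DDIT4 at 1.61, whereas ASNS, the highest member in Ribo-seq per mRNA, was at 0.648.

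DDIT4 and SESN2, which moved in both mRNA comparisons, did not pass in TCP-seq of the MCTS1 knockout. DDIT4 had 12.2 and 13.7 CPM in MCTS1 KO #1, 19.4 and 18.2 CPM in MCTS1 KO #2 and 18.3 and 22.6 CPM in WT cells, a change of -0.43 ± 0.22 (adjusted p = 0.18). SESN2 had 13.2 and 13.7 CPM in line #1, 24.6 and 17.9 CPM in line #2 and 14.7 and 18.4 CPM in WT cells, with line #1 below WT cells and line #2 overlapping them, and a mean change of -0.0040 ± 0.22 (adjusted p = 0.99). That interval, -0.44 to 0.44, includes the change seen in its mRNA. ASNS and CEBPG overlapped WT, with changes of -0.10 ± 0.25 and -0.12 ± 0.24.

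**Figure D5:**
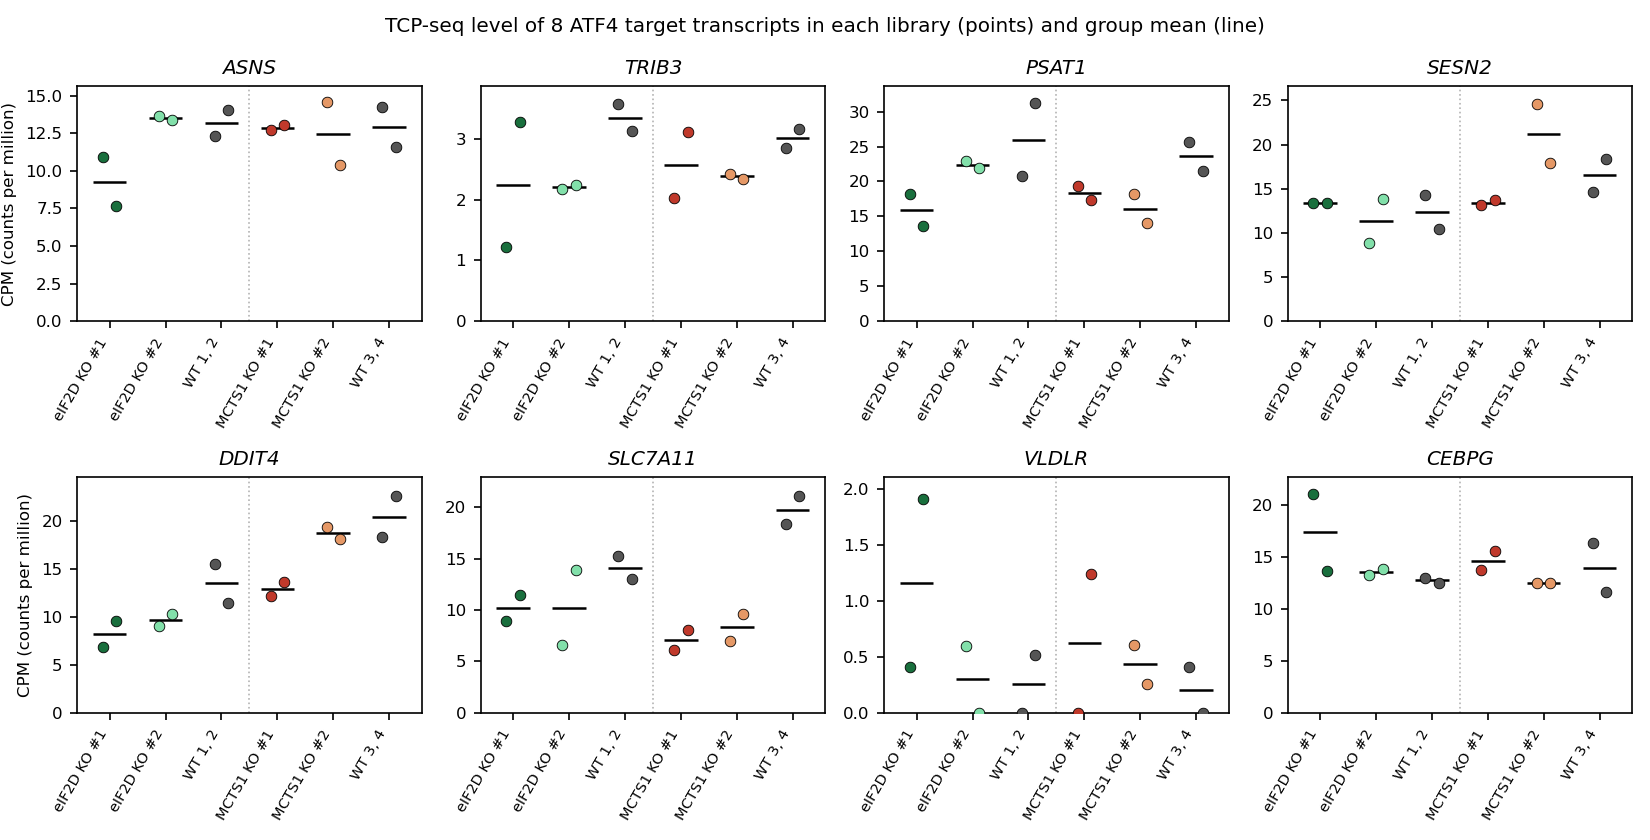
TCP-seq level (CPM, linear axis from 0) of each ATF4 target transcript, with 1 point per library, a line at the group mean and groups along the x axis, each pair of knockout lines followed by its own WT replicates. SLC7A11 lies at 6.09 to 9.60 CPM in the 4 MCTS1 KO libraries and at 18.3 and 21.1 CPM in WT replicates 3 and 4, while TRIB3 and VLDLR stay at or under 3.57 CPM in every library.

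How far the 8 mRNAs move as one can be described over the 12 RNA-seq libraries, which share their genotypes and siRNAs in pairs. Of the 28 pairs of members 13 had a positive and 15 a negative Pearson correlation of log2 levels, with a median of -0.05. ASNS, PSAT1, SLC7A11 and CEBPG varied together, with r from 0.69 to 0.90 over their 6 pairs, highest for ASNS with CEBPG. The lowest value of all pairs was -0.67, between SESN2 and DDIT4. In the same libraries ASNS, PSAT1, SLC7A11 and CEBPG shared 1 order in the knockout, with MCTS1 KO #1 above WT and WT above MCTS1 KO #2. VLDLR had this order too, at 0.837 and 0.742, 0.626 and 0.617, and 0.579 and 0.601 CPM, though its r with these members was -0.45 to -0.059. Levels of ASNS, PSAT1, SLC7A11 and CEBPG in siControl cells were 0.596 to 0.849 of those in WT cells, and SESN2 was also lower there, at 0.891.

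Some reads may not be specific to these transcripts. In the RefSeq annotation ASNS overlaps CZ1P-ASNS, SNRPCP9 and RPS3AP29, SLC7A11 overlaps the antisense gene SLC7A11-AS1, and VLDLR overlaps VLDLR-AS1 and LOC105375957. The sources used here do not say whether strand was used in counting, so reads of the antisense genes cannot be told apart. No member shared its counts in all libraries with another transcript, whereas 34885 of the 218062 transcripts with any count did.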

How the data were processed

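The deposited table holds whole-number counts per transcript, made by the authors, for 226882 versioned identifiers. The tools were cutadapt, STAR, featureCounts and Subread and the builds GRCh38.p13 and hg38, per the submitters' processing notes. Tool versions, the treatment of overlapping reads and the use of strand are not given in these sources. Columns were matched to 42 of 52 labelled samples by title or library number, and the other 10 were not analysed here.

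Transcript counts entered edgeR 4.0.16 under R 4.3.3, with glmQLFit in its robust form and glmQLFTest. TMM factors ran from 0.943 to 1.07, filterByExpr had a minimum count of 10, and calls were made at a Benjamini-Hochberg adjusted p under 0.05. Both lines or siRNAs were averaged as fitted coefficients and set against the control, so the p-value does not hold the spread between lines or siRNAs. SE was taken as |log2 change| divided by the root of F. For translational efficiency, RNA-seq and Ribo-seq entered 1 model with a group-by-assay interaction, on transcripts kept in both assays and with TMM run per assay. All 12 TCP-seq libraries entered 1 model with the WT pairs as separate coefficients. CPM is the count over the library total. The fits were tested on simulated data. Same-numbered libraries deviated together (correlation over 0.1) in 2 of 15 pairs of groups, so replicate numbers were not taken to pair libraries. The highest was 0.42, between siDENR #1 and siDENR #2 in RNA-seq, which had -0.20 and -0.24 with siControl. With a replicate block 5 members still passed in that comparison. The distance between replicate libraries was 1.20 to 6.45 times counting noise over 25 pairs, and all libraries were kept as separate.

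The rule for named genes was all 8 transcripts; for translational efficiency the range and examples are given. The members, the motif and the lists were chosen with earlier results of these data known. Lists of other ATF4 targets, cell markers and the targeted genes MCTS1, DENR and EIF2D were not analysed here, because symbols were at hand for these 8 transcripts alone. The alternatives were DESeq2 1.42.0, other scaling, no filter, each line or siRNA alone, other WT libraries in TCP-seq, a replicate block and each library left out. Sequences are from RefSeq, GRCh38.p14.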

Additional observations from a re-analysis of the deposited data

Results flagged for a closer look

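The knockout lines, and the siRNAs, differed from each other in 19 of 60 tests of a member, each by edgeR's quasi-likelihood test with an adjusted p under 0.05. The 60 include the tests of efficiency, in which no member differed. Among all transcripts, 45.8% differed between the MCTS1 KO lines and 24.9% between the siRNAs in RNA-seq, and 18.6% and 11.1% in Ribo-seq. In efficiency 6.2% and 1.01% did, and in TCP-seq 3.48% between the MCTS1 KO lines and 8.97% between the eIF2D KO lines. In RNA-seq, MCTS1 KO #1 minus MCTS1 KO #2 gave a log2 difference of 0.74 for ASNS, -0.41 for TRIB3, 0.37 for PSAT1, -0.37 for DDIT4, 1.24 for SLC7A11 and 0.31 for CEBPG. The difference siDENR #1 minus siDENR #2 in RNA-seq was -0.52 for TRIB3, 0.60 for PSAT1, 0.44 for SESN2, 0.36 for DDIT4 and -1.31 for SLC7A11. In Ribo-seq it was 0.75 for PSAT1, 0.46 for SESN2 and -2.09 for SLC7A11, and between the MCTS1 KO lines it was 1.02 for ASNS, 0.43 for PSAT1, -0.44 for DDIT4 and 1.42 for SLC7A11. In TCP-seq, eIF2D KO #1 minus eIF2D KO #2 gave -0.61 for PSAT1. Each group had 2 libraries.

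The members also had counts in the 40S Sel-TCP-seq libraries, made from small subunits selected through eIF2D-V5, MCTS1-V5 or DENR-V5, which no comparison above used. Over the 6 libraries there were 225 counts of PSAT1, 162 of ASNS, 121 of DDIT4, 61 of SESN2, 55 of SLC7A11, 37 of CEBPG, 12 of TRIB3 and 6 of VLDLR, each above the 3 counts that a count of 0 allows. No control selection was analysed here.

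The 4 WT TCP-seq libraries were the only group large enough to be examined for a library that stands apart, and none did for any of the 8 members. With 4 libraries such a check can flag little, and it does not show that they are alike. Over all transcripts, their distance was 1.38 and 1.41 times counting noise within replicates 1 and 2 and within 3 and 4. Across these pairs it was 2.10 to 3.08 times.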

How the results depend on the processing

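Numbers of transcripts past the threshold depended on the setting. With DESeq2 they were 19290, against 32828, for MCTS1 KO in RNA-seq, 4229 against 7050 in Ribo-seq and 2225 against 7017 in TCP-seq, 6342 against 11348 for siDENR in Ribo-seq and 35 against 831 for eIF2D KO. With no filter on low counts they were 1662 against 938 and 600 against 386 for efficiency in MCTS1 KO and siDENR, and 550 for eIF2D KO; 2 members then passed for MCTS1 KO in Ribo-seq. For MCTS1 KO #1 and MCTS1 KO #2 alone they were 55695 and 19665 in RNA-seq, 19218 and 4178 in Ribo-seq (5 and 2 members) and 5944 and 116 for efficiency, with 2505 in TCP-seq for line #1 and 2 members for line #2. For siDENR #1 and siDENR #2 alone they were 222 and 601 for efficiency, and 3 members passed in Ribo-seq with siDENR #2. For eIF2D KO they were 1679 with line #2 alone, 2234 with all 4 WT libraries and 5414 with the other WT pair (2 members each), and 1 member passed with line #1 alone. MCTS1 KO in TCP-seq gave 3432 with the other WT pair, and 2 members with it or with all 4. Fits without 1 library gave 19374 to 32398 and 14751 to 40741 for MCTS1 KO and siDENR in RNA-seq, 2533 to 15401 (1 to 2 members) and 5721 to 11593 (3 to 5 members) in Ribo-seq, 414 to 4755 and 145 to 761 for efficiency, 182 to 988 (0 to 1 members) for eIF2D KO and 2541 to 6926 for MCTS1 KO in TCP-seq. Why the counts moved was not tested, beyond the smaller number of libraries in such fits.

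With 1 line or siRNA alone these log2 changes had the opposite sign to the mean of both. In RNA-seq they were ASNS -0.09, PSAT1 -0.15 and VLDLR -0.031 in MCTS1 KO #2, SLC7A11 0.29 and CEBPG 0.10 in MCTS1 KO #1, TRIB3 0.21 in siDENR #2 and CEBPG -0.003 in siDENR #1. In Ribo-seq they were ASNS -0.29 and PSAT1 -0.14 in MCTS1 KO #2, SLC7A11 0.54 in MCTS1 KO #1, VLDLR 0.038 in siDENR #1 and CEBPG 0.061 in siDENR #2. In efficiency they were ASNS 0.067, VLDLR -0.14 and CEBPG -0.12 in MCTS1 KO #1, TRIB3 -0.048 in MCTS1 KO #2, and PSAT1 0.016 and SLC7A11 -0.22 in siDENR #1; VLDLR was -0.006 with DESeq2. In TCP-seq they were ASNS 0.039 in eIF2D KO #2, CEBPG 0.031 in MCTS1 KO #1 and SESN2 0.28 in MCTS1 KO #2; SESN2 in MCTS1 KO was also 0.029 with library totals, 0.002 with RLE factors, 0.041 with no filter, 0.18 with all 4 WT libraries and 0.37 with the other WT pair, which gave DDIT4 0.12 and CEBPG 0.039.

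Without 1 library, changes that had not passed crossed 0 for CEBPG in siDENR RNA-seq (-0.005 to 0.066); PSAT1 (-0.014 to 0.16), VLDLR (-0.16 to 0.35) and CEBPG (-0.19 to 0.072) in MCTS1 KO Ribo-seq; TRIB3 (-0.11 to 0.80) and VLDLR (-0.32 to 0.05) in siDENR Ribo-seq; and SESN2 in eIF2D KO TCP-seq (-0.30 to 0.072). So did ASNS (-0.20 to 0.055), SESN2 (-0.20 to 0.20) and CEBPG (-0.27 to 0.14) in MCTS1 KO TCP-seq, efficiency in MCTS1 KO of ASNS (-0.17 to 0.028), TRIB3 (-0.13 to 0.20), PSAT1 (-0.065 to 0.11), VLDLR (-0.32 to 0.20) and CEBPG (-0.15 to 0.12), and efficiency in siDENR of TRIB3 (-0.063 to 0.86), DDIT4 (-0.27 to 0.061), SLC7A11 (-0.20 to 0.46) and VLDLR (-0.005 to 0.36).

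With a replicate block, the counts of transcripts were 31414 and 30913 for MCTS1 KO and siDENR in RNA-seq, 8257 and 10912 in Ribo-seq, 1142 and 309 for efficiency and 636 for eIF2D KO; the number of members past the threshold did not change, and VLDLR efficiency in MCTS1 KO was -0.021. For MCTS1 KO in TCP-seq the groups share no replicate numbers, so no block could be fitted. Over all alternatives, 783 member values kept their direction and side of the threshold, 18 passed where they had not, 14 no longer passed and 69 changed sign. Depth limits TRIB3 and VLDLR in TCP-seq, which were too low to test.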

Other observations

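SLC7A11 had 50 counts in the eIF2D-V5 selection (13.9 CPM, exact 95% Poisson interval 10.3 to 18.3), 0 in the MCTS1-V5 selection (0 CPM, with an upper limit of 3.77 CPM by the same interval and of 3.07 CPM as 3 counts), and 5 in the DENR-V5 selection (4.50 CPM, 1.46 to 10.5), with both libraries of each summed. DDIT4 had 21.7 CPM (17.1 to 27.0) in the eIF2D-V5 selection, 10.2 CPM (4.90 to 18.8) in the MCTS1-V5 selection and 29.7 CPM (20.4 to 41.7) in the DENR-V5 selection. PSAT1 had 47.8 CPM (40.9 to 55.5), 35.8 CPM (24.9 to 49.8) and 16.2 CPM (9.59 to 25.6) in the eIF2D-V5, MCTS1-V5 and DENR-V5 selections, and ASNS 34.7 CPM (28.9 to 41.4), 16.4 CPM (9.35 to 26.6) and 18.9 CPM (11.7 to 28.9). The single MCTS1-V5 libraries had 14.0 and 48.2 CPM of PSAT1, and 8.43 and 20.9 CPM of ASNS. The intervals cover counting error only and not this spread between libraries, and no difference between the selections was tested.

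The controls of the knockout and of the knockdown differed in level. In RNA-seq, siControl over WT was 0.596 for SLC7A11, 0.720 for ASNS, 0.734 for CEBPG, 0.849 for PSAT1, 0.891 for SESN2, 1.24 for DDIT4, 1.34 for TRIB3 and 1.59 for VLDLR. These ratios are levels only and were not tested.

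The transcripts whose RNA-seq level over the 12 libraries was most like the mean standardised level of the 8 members, among 39977 with at least 5 CPM on average, were ENST00000536429.1 (Pearson r = 0.98) and ENST00000536483.1 (r = 0.97). No gene name is given for these identifiers here. They are the highest of 39977 values over 12 libraries that come in pairs, so values this high can arise without any relation. The members did not move as one, with a median r of -0.05 between them, so their mean stands for no single pattern.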
